A study of Mus musculus with 30 samples.

Results

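The 10 heat shock and small chaperone genes were followed through 30 mouse heart libraries. They were listed by name and are 10 of the 43629 genes in the deposited count tables: the inducible HSP70 genes Hspa1a and Hspa1b, their partners Hsph1 and Dnajb1, and the small heat shock protein genes Hspb1, Hspb2, Hspb6, Hspb7, Hspb8 and Cryab. The hearts came from wild type C57BL/6J mice. In the MI (myocardial infarction) groups a coronary artery was ligated through an opened chest, and sham animals had the same operation without the ligation. Hearts were taken at day 2, 4 or 7, which gives 6 groups of 5 libraries: sham and MI at each day. The labels name the whole organ, with no statement on which region of the ventricle was used, on age, or on whether each library is 1 animal. The p-values therefore set group differences against the spread between these libraries, which may not be the spread between animals.

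Heat shock proteins hold unfolding proteins and help them to refold. Heat shock factor 1 (HSF1) binds repeated GAA units in the promoters of the inducible genes and switches them on when unfolded protein builds up. HSP70 proteins refold clients in cycles of ATP use, J-domain proteins such as Dnajb1 start the cycle, and HSP110 proteins such as Hsph1 reset it by exchanging the nucleotide. Small heat shock proteins use no ATP. They bind clients and hold them in solution, and several of them are abundant in heart muscle, where they sit on Z-discs, desmin, titin and filamin.

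The libraries held 7841930 to 14070017 counts. Lung transcripts (Sftpc and Scgb1a1 together) reached 50 CPM or more in 6 libraries, called lung-bearing below. These were sham replicates 2 and 3 at day 4, sham replicates 1, 2 and 3 at day 7, and MI replicate 2 at day 7. MI replicates 3, 4 and 5 at day 7 held 22.03, 10.68 and 24.05 CPM. They stayed in when the lung-bearing libraries were left out. MI replicate 4 at day 7 held 1412 CPM of fast skeletal muscle markers, against 31.4 to 49.3 CPM in the other MI libraries of that day. All 8 cardiomyocyte markers were detected in every group, with sums of 29772 to 53860.5 CPM per library. The day 2 libraries carry another name prefix in the labels than the libraries of days 4 and 7, and what separates them by prefix cannot be told apart from the day. CPM (a gene's counts scaled by the library total) use no further factor, while fitted fold changes use trimmed mean (TMM) factors. These factors averaged 0.934 (sham) and 1.01 (MI) at day 2, 0.948 and 1.08 at day 4, and 0.954 and 1.09 at day 7, so that a fitted change is lower than the ratio of the CPM. Without the factors the median of all genes moved to 0.088, 0.18 and 0.21 on the log2 scale at days 2, 4 and 7.

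The promoters are shown because HSF1 acts through such sequences, and because those of Hspa1a and Hspa1b are near copies. The 250 bases before the start site are given 5' to 3' on the gene's strand, from RefSeq on GRCm38.p6, with matches to GAANNTTC or TTCNNGAA (2 GAA units facing each other, N any base, searched on both strands, and each pattern reads the same on both) in capitals.
Hspa1a, chr17:34972157-34972406, minus strand: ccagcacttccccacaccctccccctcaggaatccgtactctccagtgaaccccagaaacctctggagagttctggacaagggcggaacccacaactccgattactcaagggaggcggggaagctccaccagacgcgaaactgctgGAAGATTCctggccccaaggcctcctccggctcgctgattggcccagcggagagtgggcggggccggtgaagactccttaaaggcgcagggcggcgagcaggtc
Hspa1b, chr17:34959239-34959488, minus strand: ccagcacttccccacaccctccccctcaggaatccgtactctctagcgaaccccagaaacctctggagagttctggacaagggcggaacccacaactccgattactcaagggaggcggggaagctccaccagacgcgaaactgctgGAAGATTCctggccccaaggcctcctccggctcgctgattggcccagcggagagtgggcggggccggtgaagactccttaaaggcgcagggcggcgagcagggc
Hspb1, chr5:135887669-135887918, plus strand: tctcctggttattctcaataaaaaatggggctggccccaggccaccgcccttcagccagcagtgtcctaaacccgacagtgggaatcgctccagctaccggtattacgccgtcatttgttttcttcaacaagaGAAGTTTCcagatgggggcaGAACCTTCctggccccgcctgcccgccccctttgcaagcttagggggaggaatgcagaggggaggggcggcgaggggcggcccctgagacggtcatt
Hspb7, chr4:141420529-141420778, plus strand: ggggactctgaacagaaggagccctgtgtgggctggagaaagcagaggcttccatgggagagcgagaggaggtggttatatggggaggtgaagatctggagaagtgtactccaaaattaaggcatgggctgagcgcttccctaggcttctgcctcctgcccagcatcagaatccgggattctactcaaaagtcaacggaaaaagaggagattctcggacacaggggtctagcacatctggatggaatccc
Hspa1a and Hspa1b shared GAAGATTC at -104 to -97 from the start site. Their windows of 300 bases, which also take in the 50 bases after the start, differed by C44T, T47C, T249G and C276T, with Hspa1a named first and positions counted from 1 at the 5' end of the window. Hspb1 had GAAGTTTC at -117 to -110 and GAACCTTC at -97 to -90, and Hspb7 had no match. Over 32817 promoter windows of the same length, 15.1% held at least 1 match and 0.603% held a form with 3 units (either pattern extended by NN and 1 more facing unit). Hsph1 was the member with the 3-unit form, as TTCTGGAAAGTTC in both of its overlapping windows (36 to 48 in the first), and it also held TTCTCGAA (-33 to -26 in the first). The window of Hspb8 held 1 match, at 2 to 9, the second of 2 windows of Hspb6 held 1, at -120 to -113, and neither window of Dnajb1 held one. Hspb2 and Cryab had no entry in the table used. A match is a string of letters, and binding was not measured.

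Several of the 10 genes share sequence or position with another gene, which bears on what their counts mean. Hspa1a (ENSMUSG00000091971, chromosome 17, 34969190 to 34972156) and Hspa1b (ENSMUSG00000090877, chromosome 17, 34956436 to 34959238) each have 1 exon. Their transcripts were 99.3% identical over 2197 aligned bases, with an unbroken identical run of 638 bases, longer than the 150 bases of a read, so the split of reads between them is uncertain. Cryab (ENSMUSG00000032060, chromosome 9, 50751325 to 50756636, plus strand) and Hspb2 (ENSMUSG00000038086, chromosome 9, 50751078 to 50752354, minus strand) overlap by 1030 bases. The libraries were directional but how the counting treated strand is not known here, so reads from the overlap may have been counted for either gene or left out. Hspb1 (ENSMUSG00000004951, chromosome 5, 135887919 to 135889563) has a processed pseudogene, Hsp25-ps1, that matches it at 99.4% over 630 bases and held a mean of 44.6 CPM. Hspb7 matched the gene Gm17571 at 95.8% over 71 bases, and Gm17571 held a mean of 0.0254 CPM.

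The muscle small heat shock genes were the abundant members. In sham hearts at day 2, mean levels per kilobase of exon were 1555 CPM for Cryab, 1114 for Hspb7, 529 for Hspb6 and 397 for Hspb8. Hspb1 (143) and Hspb2 (119.8) came next with overlapping ranges, and Dnajb1 (17.1), Hsph1 (13.02), Hspa1b (6.83) and Hspa1a (5.90) were lowest, each overlapping the next. The order of the first 4 was the same in 5 of the 6 groups. In MI hearts at day 7 Hspb7 (811 CPM per kilobase) stood before Cryab (762), with overlapping ranges. Together the 10 genes took 0.781% ± 0.0506 (SD, n = 5) of all counts in sham and 1.19% ± 0.121 in MI hearts at day 2. The share was 0.538% ± 0.0243 in sham and 0.630% ± 0.0575 in MI at day 4, and 0.524% ± 0.0373 and 0.465% ± 0.0285 at day 7.

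**Figure D1:**
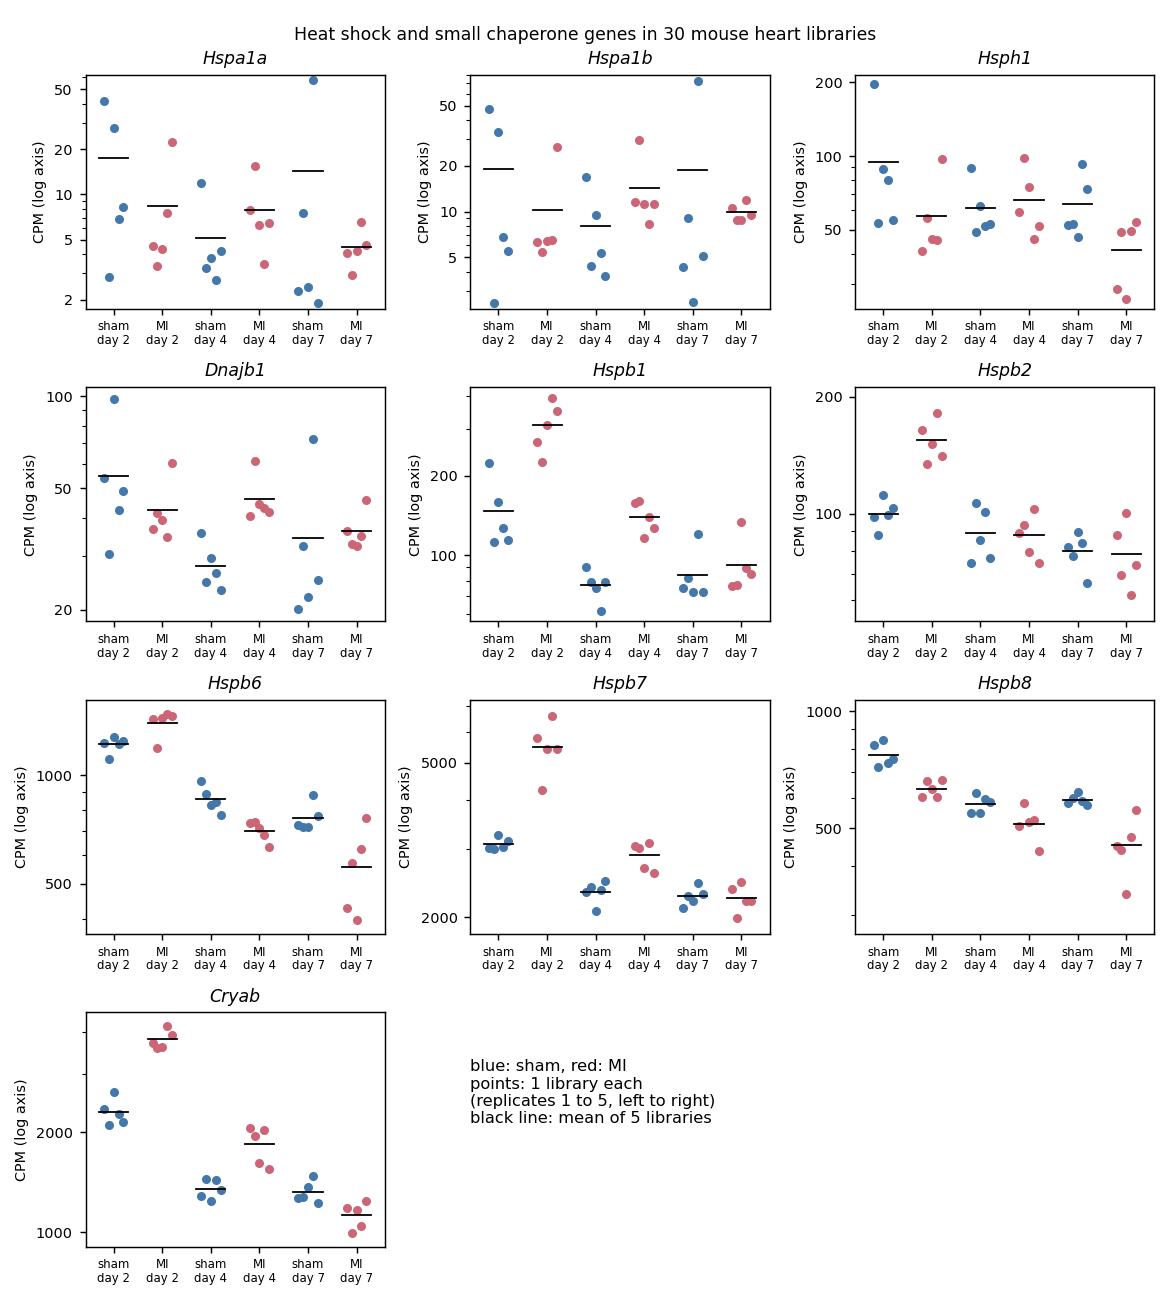
CPM (log axis) of each of the 10 genes in every library, by group, with sham in blue, MI in red and the mean of 5 libraries as a black line. Hspb1, Hspb2, Hspb7 and Cryab had all 5 MI libraries above all 5 sham libraries at day 2, as had 20.3% of all genes tested. Hspa1a and Hspa1b spread widely within groups, up to 57.0 and 73.1 CPM in sham replicate 4 at day 7.

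The first question is which of the 10 differed between MI and sham at each day. At day 2, Hspb1, Hspb2, Hspb7 and Cryab were higher in MI and Hspb8 was lower (edgeR quasi-likelihood test, Benjamini-Hochberg adjusted over all genes tested). At day 4, Hspb1 and Dnajb1 were higher and Hspb6 and Hspb8 lower. At day 7 none was higher, and Hsph1, Hspb6, Hspb8 and Cryab were lower. These counts stand beside a large background. At day 2, 46.3% of 14524 genes tested were called, 24.1% higher and 22.2% lower. At day 4 it was 52.7% of 14410 genes, 27.5% higher and 25.2% lower, and at day 7 55% of 14492 genes, 28.4% higher and 26.6% lower. The 5, 4 and 4 members called at days 2, 4 and 7 were thus no larger a share than among all genes at days 4 and 7, and near it at day 2. All 10 passed the filter on low counts in each comparison. The median log2 fold change of the 10 was -0.14 at day 2, 0.20 at day 4 and -0.50 at day 7, against -0.0051, 0.0061 and 0.012 over all genes. The day 7 median counts Hspa1a (-1.84) and Hspa1b (-1.11), which are near copies, as 2 genes. Without sham replicate 4 of that day their values were 0.17 and 0.73, so this median leans on 1 library.

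**Figure D2:**
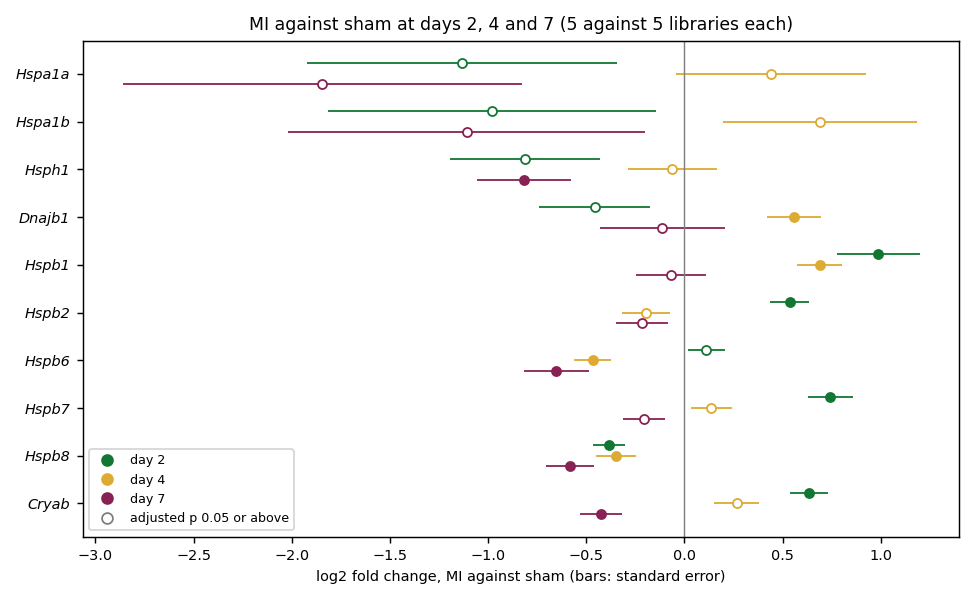
Fitted log2 fold change of MI against sham for each gene at days 2, 4 and 7, with bars of 1 standard error and open points where the adjusted p was 0.05 or above. Cryab went from 0.63 at day 2 to -0.43 at day 7, Hspb8 was below 0 at each day, and the bars of Hspa1a and Hspa1b were the widest.

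Cryab encodes alpha-B crystallin, a small heat shock protein of the Z-disc that binds desmin and titin. At day 2 it read 2349, 2096, 2637, 2264 and 2152 CPM in the 5 sham libraries. In the MI libraries of that day it read 3711, 3586, 3615, 4177 and 3926 CPM. The groups did not overlap, and the fitted fold change was 1.55 (log2 0.63 ± 0.10 SE, adjusted p = 0.00011). At day 4 the sham values were 1287, 1443, 1244, 1440.2 and 1341 CPM, and the MI values were 2057, 1949, 1612, 2028 and 1545 CPM. Every MI library was again above every sham library in CPM, but the fitted difference of 0.27 ± 0.12 missed the threshold (adjusted p = 0.065). It passed in DESeq2 (0.049), in the fit of all 30 libraries (0.043) and without the TMM factors (0.44, adjusted p = 0.0020). At day 7 the order turned: sham libraries held 1273, 1282, 1368, 1473 and 1226 CPM and MI libraries 1188, 994, 1167, 1046 and 1244 CPM. The ranges overlapped through MI replicate 5 alone, which lay above the lowest sham library. The fitted value was -0.43 ± 0.11 (adjusted p = 0.0045). Without the lung-bearing libraries it was -0.46 with an adjusted p of 0.078, and without the TMM factors -0.23 with 0.070.

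Hspb2, the neighbour of Cryab and a small heat shock protein of muscle, was higher in MI at day 2 alone among the 3 days. It read 97.9, 88.1, 111, 99.1 and 103 CPM in sham and 164, 134, 151, 181 and 141 CPM in MI at day 2. The groups were apart and the log2 fold change was 0.54 ± 0.10 (adjusted p = 0.00048). At day 4 sham libraries ranged from 74.7 to 107 CPM and MI libraries from 74.6 to 103 CPM, and at day 7 the ranges were 66.2 to 89.4 and 61.5 to 100.1 CPM. The ranges overlapped almost wholly at both days, with fitted values of -0.20 ± 0.12 (adjusted p = 0.20) and -0.22 ± 0.13 (adjusted p = 0.18). At day 7 limma voom called it lower (-0.36, adjusted p = 0.0090).

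Hspb7 (ENSMUSG00000006221, chromosome 4, 141420779 to 141425311) encodes a small heat shock protein of heart and muscle that binds filamin C. At day 2 it read 3021, 2989.5, 3247, 3031 and 3142 CPM in sham hearts. In MI hearts it read 5796, 4240.0, 5425, 6586 and 5432 CPM, a fold change of 1.67 (log2 0.74 ± 0.12, adjusted p = 0.00012). The lowest MI library thus lay well above the highest sham library. At day 4 the sham values were 2319, 2386, 2078, 2349.6 and 2473 CPM and the MI values 3054, 3006, 2674, 3105 and 2594 CPM. As with Cryab, the CPM of the groups did not overlap while the fitted value was 0.14 ± 0.10 (adjusted p = 0.29). Without the TMM factors it was 0.31 (adjusted p = 0.0078), so the day 4 call rests on the scaling. At day 7 the ranges were 2117 to 2444 CPM in sham and 1994 to 2470.4 CPM in MI, with a fitted value of -0.21 ± 0.11 (adjusted p = 0.11). DESeq2 and limma voom called that difference lower (adjusted p = 0.026 and 0.016).

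Hspb1, the mouse HSP25 that binds actin filaments and unfolded proteins, gave the largest fitted increase among the members called. Sham hearts at day 2 held 224, 112, 159, 127 and 115 CPM, and MI hearts held 267, 225, 312, 395 and 351 CPM. Sham replicate 1 reached just below the lowest MI library, and the fold change was 1.98 (log2 0.99 ± 0.21, adjusted p = 0.0020). At day 4 sham libraries held 90.3, 79.1, 75.1, 61.7 and 79.4 CPM and MI libraries 158, 160.5, 116, 139.9 and 127 CPM. The groups were apart, at a fold change of 1.61 (log2 0.69 ± 0.11, adjusted p = 0.00013). At day 7 sham libraries held 75.0, 81.9, 72.7, 120.5 and 72.9 CPM and MI libraries 76.3, 77.5, 134, 89.6 and 84.7 CPM. One library stood high in each group, sham replicate 4 and MI replicate 3, and the difference was -0.07 ± 0.18 (adjusted p = 0.77). It was 0.13 without the TMM factors, so its sign changes with the scaling. With the reads of Hsp25-ps1 added, the values were 0.97 at day 2, 0.70 at day 4 and -0.04 at day 7, with the same calls.

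Hspb8, the partner of Bag3 in the removal of damaged filamin, was the member called lower at each of the 3 days. At day 2 it read 822, 719, 843, 735 and 753 CPM in sham and 601, 662, 631, 602 and 667 CPM in MI, without overlap (log2 -0.38 ± 0.08, adjusted p = 0.0013). At day 4 it read 549, 617, 549, 596 and 585 CPM in sham and 507, 582, 518, 526 and 438 CPM in MI. These ranges overlapped, and the fitted value was -0.35 ± 0.10 (adjusted p = 0.0087). This was -0.17 (adjusted p = 0.10) without the TMM factors, which ends the day 4 call. At day 7 it read 581, 597, 619, 589 and 573 CPM in sham and 449.9, 439, 340.0, 474 and 559 CPM in MI. Again all MI libraries were below all sham libraries, by -0.58 ± 0.12 (adjusted p = 0.0011).

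Hspb6, the small heat shock protein HSP20 that is phosphorylated on beta-adrenergic stimulation, was not called at day 2 and was lower in MI at days 4 and 7. At day 2 sham libraries ranged from 1108 to 1279 CPM. The MI values were 1429, 1188, 1438, 1475 and 1459.7 CPM, so that 4 of 5 lay above all sham libraries and replicate 2 did not. The fitted value was 0.11 ± 0.09 (adjusted p = 0.36). At day 4 it read 959.7, 887, 826, 842 and 774 CPM in sham and 735, 742, 714, 684 and 633 CPM in MI, without overlap (log2 -0.47 ± 0.10, adjusted p = 0.00080). At day 7 it read 726, 719, 716, 883 and 768 CPM in sham and 429, 571, 398, 624 and 761 CPM in MI. MI replicate 5 reached into the sham range, and the fitted value was -0.65 ± 0.16 (adjusted p = 0.0041).

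Members without overlap in CPM were thus 4 above and 1 below sham at day 2 (20.3% and 10.3% of all genes tested), 4 above and 1 below at day 4 (28.2% and 11.1%), and 0 above and 1 below at day 7 (29.3% and 12.2%). In bulk hearts, fewer cells of a type and less RNA per cell cannot be told apart. The 8 cardiomyocyte markers summed to 40622 to 44184 CPM in sham and 38056 to 43517 CPM in MI at day 2, 42753 to 53860.5 and 31027 to 38773 CPM at day 4, and 43577 to 46866 and 29772 to 35872 CPM at day 7. Of these 8 markers 4, 7 and 6 were called lower at days 2, 4 and 7, and 1, 0 and 0 higher. Macrophage markers summed to 394 to 466 CPM in sham and 445 to 1019 CPM in MI at day 2. The macrophage sums were 350.0 to 605 and 1333 to 1680 CPM at day 4, and 310.4 to 674 and 974 to 2123 CPM at day 7. Fibroblast markers at day 2 summed to 869 to 1702 CPM in sham and 871 to 1249 CPM in MI, with 2 of 4 called lower. Their sums were 1211 to 2284 and 2461 to 4533 CPM at day 4, and 1036 to 1779 and 3414 to 7177 CPM at day 7. The part of these shifts in the results on the 10 genes was not tested.

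The heat-inducible HSP70 genes were called at no day, and a few libraries stood far above the rest of their group. Hspa1b read 47.5, 2.51, 33.4, 6.80 and 5.47 CPM in sham and 6.28, 5.38, 6.36, 6.47 and 26.8 CPM in MI hearts at day 2. Sham replicates 1 and 3 and MI replicate 5 stood far above the rest, and the difference was -0.98 ± 0.84 (adjusted p = 0.37). It was -0.32 without sham replicate 1 and -1.75 without MI replicate 5, with no call in either. At day 4 it read 16.8, 4.41, 9.54, 5.33 and 3.77 CPM in sham and 11.5, 29.8, 11.3, 8.24 and 11.2 CPM in MI. The ranges overlapped through sham replicates 1 and 3, and the difference was 0.69 ± 0.49 (adjusted p = 0.27). Without sham replicate 1 it was 1.16 (adjusted p = 0.043), and without MI replicate 2 it was 0.23 (adjusted p = 0.65). At day 7 sham libraries held 4.30, 9.08, 2.53, 73.1 and 5.10 CPM, and MI libraries 10.6, 8.82, 8.83, 11.9 and 9.49 CPM. Sham replicate 4 alone sets the sign here: the difference was -1.11 ± 0.91 (adjusted p = 0.33) with it and 0.73 (adjusted p = 0.041) without it.

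Hspa1a followed the same libraries. At day 2 it read 41.9, 2.81, 27.8, 6.87 and 8.20 CPM in sham and 4.53, 3.35, 4.35, 7.53 and 22.2 CPM in MI, a difference of -1.13 ± 0.79 (adjusted p = 0.27). This was -0.53 without sham replicate 1 (adjusted p = 0.61) and -1.90 without MI replicate 5 (adjusted p = 0.052). At day 4 the values were 11.9, 3.22, 3.77, 2.71 and 4.22 CPM in sham and 7.86, 15.4, 6.31, 3.43 and 6.42 CPM in MI. The high libraries were again sham replicate 1 and MI replicate 2, the difference was 0.44 ± 0.49 (adjusted p = 0.47), and it was 1.01 (adjusted p = 0.041) without sham replicate 1 and 0.03 (adjusted p = 0.96) without MI replicate 2. At day 7 sham libraries held 2.29, 7.51, 2.42, 57.0 and 1.91 CPM and MI libraries 4.09, 2.90, 4.21, 6.56 and 4.64 CPM. The difference of -1.84 ± 1.02 (adjusted p = 0.16) became 0.17 without sham replicate 4. Since the copies share most of their sequence, their reads were also summed, which gave -1.05, 0.60 and -1.39 at days 2, 4 and 7 and no call.

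Dnajb1 (ENSMUSG00000005483, chromosome 8, 83608193 to 83612653), the J-domain partner of inducible HSP70, was higher in MI at day 4. Sham libraries held 35.5, 24.6, 29.4, 26.2 and 23.2 CPM, and MI libraries 40.6, 61.5, 44.3, 42.8 and 41.6 CPM. All MI libraries were above all sham libraries, at a fold change of 1.47 (log2 0.56 ± 0.14, adjusted p = 0.0032). In the fit of all 30 libraries, which takes its spread from all groups, the adjusted p was 0.13. At day 2 sham libraries ranged from 30.4 to 97.6 CPM and MI libraries from 34.7 to 60.3 CPM (-0.46 ± 0.28, adjusted p = 0.21). At day 7 they ranged from 20.1 to 72.4 and from 32.2 to 45.5 CPM (-0.11 ± 0.32, adjusted p = 0.78). Sham replicate 3 at day 2 and sham replicate 4 at day 7 were the high ends of these ranges. Without the former the day 2 value was -0.14 (adjusted p = 0.60), and without the latter the day 7 value was 0.36 (adjusted p = 0.064).

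Hsph1 (ENSMUSG00000029657, chromosome 5, 149614287 to 149636376), an HSP110 protein, was lower in MI at day 7. It read 52.3, 52.7, 46.6, 92.5 and 73.3 CPM in sham and 28.8, 48.9, 26.2, 49.7 and 53.7 CPM in MI. MI replicates 1 and 3 lay far below the other 8 libraries, and the fitted value was -0.82 ± 0.24 (adjusted p = 0.012). At day 2 sham libraries held 196, 53.3, 88.7, 79.9 and 54.8 CPM and MI libraries 40.9, 56.1, 46.0, 45.3 and 97.0 CPM. The difference of -0.81 ± 0.38 missed the threshold (adjusted p = 0.10). It passed without MI replicate 5 (-1.11, adjusted p = 0.027), in the fit of all 30 libraries (0.042) and in limma voom (0.047), and it was -0.37 (adjusted p = 0.30) without sham replicate 1. At day 4 the ranges were 49.2 to 89.7 CPM in sham and 45.9 to 98.3 CPM in MI (-0.06 ± 0.23, adjusted p = 0.83). That value was 0.11 without the TMM factors.

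The difference of the MI effect between days was tested in 1 fit of all libraries. From day 2 to day 7 it fell for 5 members: by 1.04 for Cryab (adjusted p = 1.7e-05), by 1.03 for Hspb1 (0.0088), by 0.92 for Hspb7 (7.9e-05), by 0.74 for Hspb6 (0.0034) and by 0.73 for Hspb2 (0.0054), all on the log2 scale. Of all 15537 genes tested, 19.2% were called in this comparison, 10.1% with a higher and 9.11% with a lower effect. Those 5 are all small heat shock genes. The sixth, Hspb8, gave -0.17 ± 0.14 (adjusted p = 0.39). The fall was not particular to these genes. Of the 8 cardiomyocyte markers, 5 were also called with a lower effect and 0 with a higher one (median -0.54). Of the 70 genes tested in wider lists of chaperones, heat shock factors and Z-disc partners, described below, 19 were lower and 0 higher. These took in 8 of 14 chaperonin and prefoldin genes and 5 of 9 mitochondrial chaperones, but 0 of 8 in the HSP70 family and 0 of 12 in the HSP90 list. From day 2 to day 4 the effect fell by 0.73 for Hspb2 (adjusted p = 0.017) and by 0.60 for Hspb7 (0.016), where 4.8% of genes were called. The Hspb6 value was -0.57 (adjusted p = 0.052), and it was called with median-ratio factors (adjusted p = 0.044), DESeq2 (0.017), limma voom (0.0077) and the filter at 1 CPM (0.045). It was also called without MI replicate 2 of day 2 (-0.65), sham replicate 3 of day 4 (-0.62) or MI replicate 2 of day 4 (-0.62). From day 4 to day 7 it fell by 0.67 for Cryab (0.019), where 1.02% of genes were called, and these days share a name prefix. The Cryab value lost its call without the lung-bearing libraries (-0.66, adjusted p = 0.17) and without sham replicate 3 of day 4 (-0.61, adjusted p = 0.058). The Hspb2 value from day 2 to day 7 was -0.64 (adjusted p = 0.051) without the lung-bearing libraries. None of the 4 inducible genes passed in any of the 3 comparisons, with values of -2.26 to 1.67 and standard errors of 0.41 to 1.23.

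Sham hearts differed between days as well. Against day 2, sham hearts at day 4 were lower in 6 members, where 24.4% of 15537 genes were called and 12.7% were lower. The values were -0.79 for Cryab (adjusted p = 9.8e-07), -0.95 for Hspb1, -1.001 for Dnajb1, -0.52 for Hspb6, -0.44 for Hspb8 and -0.43 for Hspb7. The Dnajb1 value lost its call without sham replicate 3 of day 2 (-0.67, adjusted p = 0.083) and without the lung-bearing libraries (-0.94, adjusted p = 0.068). This comparison runs across the 2 name prefixes. Markers of other tissues also differed in it: all 4 fat markers were higher at day 4 (median log2 3.62), as were 4 of 5 smooth muscle markers (median 0.96) and 1 of 4 lung markers. Fat markers summed to 30.02 to 37.7 CPM in sham hearts at day 2 and 42.8 to 272 CPM at day 4. Their part in the result was not tested. Between sham hearts of days 4 and 7, which share a prefix, no member was called, 0 of 10, where 0.122% of genes were, 0.0515% higher and 0.0708% lower. No member reached an unadjusted p under 0.05 in edgeR there. DESeq2 called none of the 8 members for which it gave an adjusted p, and it gave none for Hspa1a and Hspa1b.

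Small chaperone transcripts were also set against cardiomyocyte transcripts, as counts per 1000 counts of the 8 markers Tnnt2, Tnni3, Tnnc1, Actc1, Actn2, Myl2, Myl3 and Mybpc3. On this scale Cryab stood at 53.2 ± 3.94 (SD, n = 5) in sham and 94.1 ± 2.97 in MI at day 2, 28.2 ± 1.32 and 54.4 ± 6.17 at day 4, and 29.3 ± 2.14 and 34.6 ± 2.60 at day 7. The day 7 difference thus has the other sign here (log2 0.24) than per library total, with overlapping groups. Hspb7 stood at 71.4 ± 2.39 and 135.6 ± 16.1 at day 2, 48.5 ± 4.22 and 85.5 ± 6.40 at day 4, and 50.04 ± 2.89 and 69.1 ± 6.81 at day 7, without overlap at any of the 3 days. Hspb2 did not overlap at any day either, at 1.76 ± 0.193 in sham and 2.41 ± 0.430 in MI at day 7. Hspb8 differed by less than its spread at day 7 (13.1 ± 0.485 and 13.9 ± 2.42) and above sham at day 4 (12.1 ± 0.733 and 15.2 ± 0.700). Members above sham without overlap were 5 at day 2, 6 at day 4 and 2 at day 7, and none was below. Of all genes, 23.2%, 54% and 58% were above in that way, and 5.47%, 1.69% and 2.53% below. The marker sums were themselves lower in MI without overlap at days 4 and 7, so the scale raises most genes at those days. The share of the members was near the background at day 4 and under it at day 7.

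**Figure D3:**
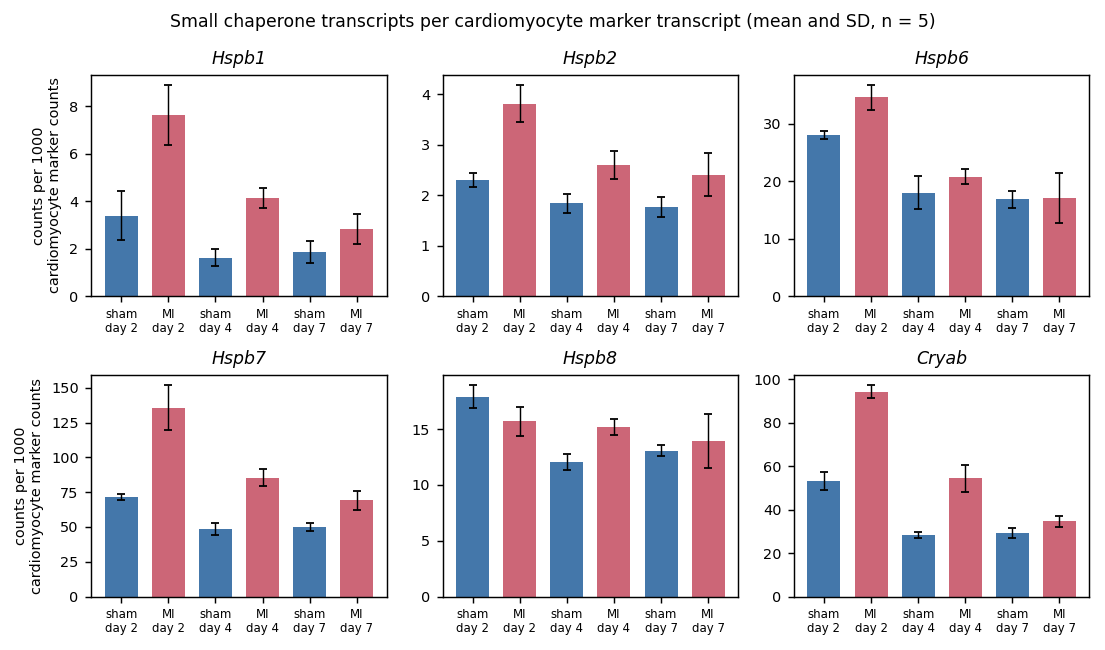
Counts of 6 small heat shock genes per 1000 counts of 8 cardiomyocyte markers, by group (bars, mean of 5 libraries, error bars 1 SD, sham blue and MI red). Hspb2 and Hspb7 were higher in MI at each day, and Cryab fell from 94.1 at day 2 to 34.6 at day 7 in MI hearts.

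Within groups, the inducible genes moved together from library to library. Each library's deviation from its group mean was taken on log2(CPM + 1), and all 45 pairs of members were correlated over the 30 libraries, with permutation within groups and adjustment over the 45 pairs. Hspa1a and Hspa1b, which may share reads, gave Pearson r = 0.96 and Spearman rho = 0.88 (permutation p = 1e-05 and 2e-05, adjusted 0.00023 and 0.00030). Hspa1b and Dnajb1, which lie on different chromosomes, gave r = 0.88 (permutation p = 3e-05, adjusted 0.00034) and rho = 0.83 (permutation p = 1e-05, adjusted 0.00023). Hspa1b and Hsph1 gave r = 0.76 (permutation p = 1e-05, adjusted 0.00023) and rho = 0.67 (permutation p = 9e-05, adjusted 0.0010), where 1e-05 is the smallest p these permutations can give. Without the 2 libraries farthest from the median of the first gene these pairs gave r = 0.91, 0.91 and 0.70. In all, 21 of 45 pairs passed at an adjusted p under 0.05. The share of pairs of other genes that would pass was not measured. The count therefore does not show whether the members vary together more than other genes do.

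The libraries behind this pattern were of both operations and all days. Sham replicate 4 at day 7 was 2.94 above its group mean for Hspa1b, 1.22 for Dnajb1, 0.58 for Hsph1 and 0.53 for Hspb1, on the log2 scale. Sham replicate 1 at day 2 was 1.97 above for Hspa1b, 1.22 for Hsph1 and 0.65 for Hspb1 but 0.09 for Dnajb1. MI replicate 5 (1.57 for Hspa1b) and sham replicate 3 (1.47) at day 2, and sham replicate 1 (1.18) and MI replicate 2 (1.14) at day 4, were the next, each also above its group in Hsph1, Dnajb1 and Hspb1. None of these 6 libraries was among the lung-bearing ones. Hspb2, Hspb7 and Cryab also correlated with each other. Hspb2 and Cryab, which overlap in the genome, gave r = 0.68 and rho = 0.70 (permutation p = 0.00015 and 0.00014, adjusted 0.00084 and 0.0013). Hspb7 and Cryab, on different chromosomes, gave r = 0.65 and rho = 0.70 (permutation p = 3e-05 and 0.00018, adjusted 0.00034 and 0.0014). Hspb6 and Hspb8 did not pass with any of these 3 genes. The 3 genes and the 4 inducible genes were not wholly apart: of the 12 pairs between them, Dnajb1 and Cryab passed on r (0.42, adjusted permutation p = 0.042) but not on rho (0.21, adjusted permutation p = 0.38). Hspb6 passed on r with each of the 4 inducible genes (0.35 to 0.53), and on rho with all of them but Dnajb1 (adjusted permutation p = 0.063). Hspb8 passed on r with Hsph1 (0.46), Dnajb1 (0.35) and Hspb6 (0.62), with adjusted permutation p of 0.031, 0.015 and 0.047. On rho it passed with Dnajb1 alone of these (0.46, adjusted permutation p = 0.035). It passed with neither Hspa1a nor Hspa1b. Hspb1 passed with Hspa1a (r = 0.74, adjusted permutation p = 0.00036) and Hspa1b (r = 0.69, adjusted permutation p = 0.0022). It did not pass with Hsph1 (r = 0.45) or Dnajb1 (r = 0.47). Hspb1 also passed with Hspb7 (r = 0.54, adjusted permutation p = 0.0068) and Cryab (r = 0.49, adjusted permutation p = 0.023). All libraries of a group share their operation and day.

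**Figure D4:**
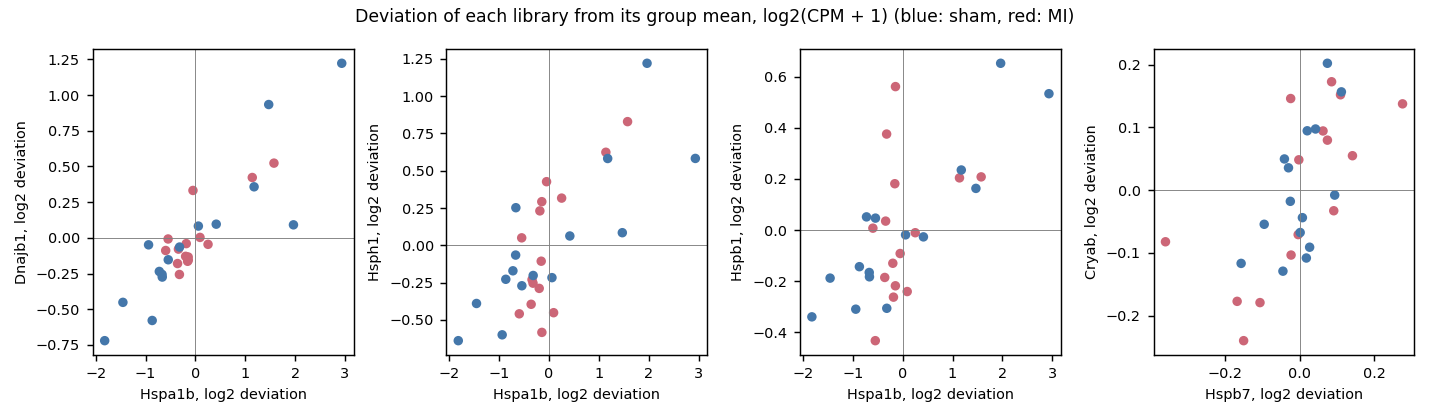
Deviation of each of the 30 libraries from its group mean on log2(CPM + 1), for Hspa1b against Dnajb1, Hsph1 and Hspb1, and for Hspb7 against Cryab (sham blue, MI red). Points of both colours follow the Hspa1b and Dnajb1 trend (r = 0.88), and the farthest point is sham replicate 4 at day 7.

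Genes with profiles most like each member's were sought among 10035 genes averaging 10 CPM or more, by the root mean square difference of log2(CPM + 1) centred on each gene's mean over the 30 libraries. For Dnajb1 the nearest were Dnaja1 (0.33), another J-domain gene, then Siah2 (0.35) and Banp (0.36). For Hspa1a the same 3 came first, Dnaja1 at 0.76, and for Hspa1b Gm7816 (0.77), Hsp90aa1 (0.79), which encodes the inducible HSP90, and Gm12346 (0.79). For Hsph1 they were Hspa4l (0.31), also an HSP110 gene, Ppp1r3b (0.32) and the J-domain gene Dnajb5 (0.33). Hspb1 was nearest to its pseudogene Hsp25-ps1 (0.30), then Gm5844 (0.32) and Phlda1 (0.33). Hspb2 and Hspb7 shared Cav3, the muscle caveolin, at 0.15 and 0.16. Hspb2 was nearest to Popdc2 (0.14) and Hspb7 to Adamtsl5 (0.14), and Hspb8 to Diablo (0.08). Hspb6 was nearest to Ndufab1 (0.17), and Cryab to Gm5529 (0.23). The members' own profiles had root mean squares of 0.27 (Hspb8) to 1.08 (Hspa1a), and a small profile gives small differences.

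Of 73 other genes listed, 72 were matched and 70 tested. They were chaperones and cofactors, with 1 list of 4 heat shock factor genes and 1 of 5 Z-disc partners. At day 2, 15 were higher and 18 lower in MI, at day 4 13 and 26, and at day 7 7 and 38. The Z-disc list gave 3 of the higher genes at each day, and 2, 0 and 1 of the lower ones. The heat shock factor list gave none of the higher genes and 1, 2 and 1 of the lower ones. Of all genes tested, 24.1%, 27.5% and 28.4% were higher and 22.2%, 25.2% and 26.6% lower at these days. The day 2 counts were near those shares. The counts by list given below stand against the same shares. The median log2 fold change was -0.04, -0.10 and -0.28, against -0.0051, 0.0061 and 0.012 over all genes. The split by role was uneven. Mitochondrial chaperones, which fold imported proteins, had 6, 8 and 8 of 9 lower at days 2, 4 and 7 and none higher, with a median of -0.76 at day 7. Hspd1, the mitochondrial HSP60, went from 236 ± 25.7 CPM in sham to 134 ± 24.0 CPM in MI at day 7 (log2 -1.01, adjusted p = 2.6e-05). Dnaja3 (-1.05), Hspa9 (-0.96) and Clpb (-0.96) were close to it. The chaperonin and prefoldin genes, which fold actin and tubulin, had 8 of 14 higher at day 2 and 6 higher with 2 lower at day 4, and at day 7 none higher and 3 lower. Cct5 rose from 177 ± 4.001 to 259.9 ± 24.8 CPM at day 2 (log2 0.46, adjusted p = 0.00028), and Cct8 by 0.45.

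**Figure D5:**
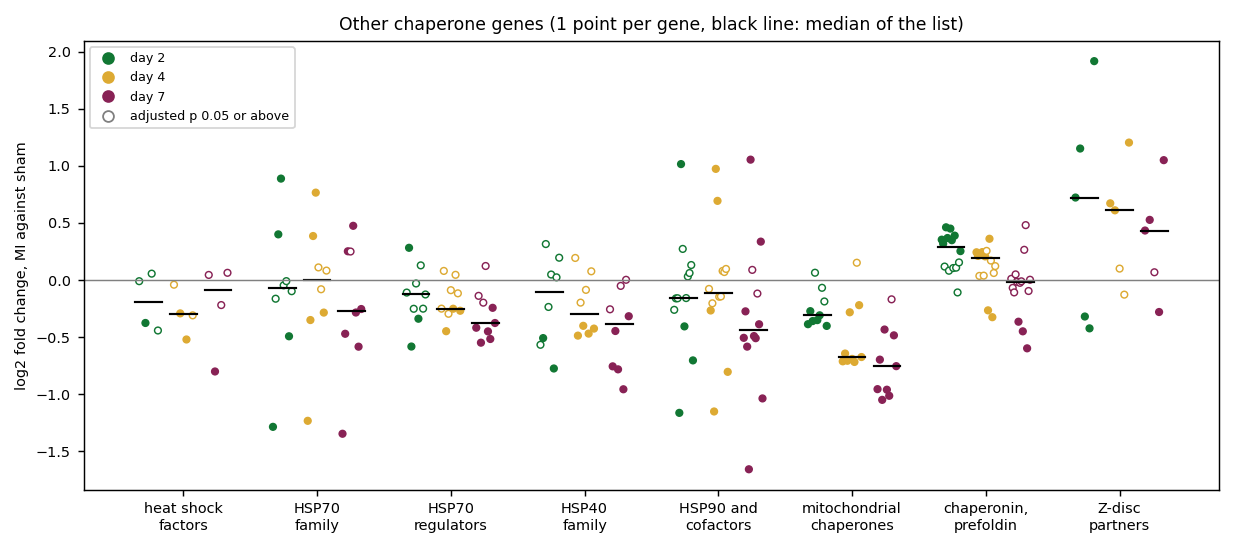
Fitted log2 fold change of MI against sham for other chaperone, heat shock factor and Z-disc partner genes, by list and day. Filled points mark an adjusted p under 0.05, and black lines the list medians. Mitochondrial chaperones lie below 0 at each day, with a median of -0.76 at day 7, and chaperonin genes lie mostly above 0 at day 2.

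Among cofactors of HSP90, Fkbp4 was lower at each day (log2 -1.16, -1.15 and -1.66) and Fkbp5, a glucocorticoid-induced gene, was higher (1.02, 0.97 and 1.06). Unc45b, the myosin chaperone, was lower at each day (-0.70, -0.80 and -1.04). Hsp90aa1 was higher at day 4 alone (0.69, adjusted p = 0.00024), with 84.3 ± 15.5 CPM in sham and 154 ± 21.5 CPM in MI. The HSP90 list had 1, 2 and 2 of 12 higher and 3, 3 and 8 lower. In the HSP70 family 2 of 8 were higher at each day and 2, 3 and 5 lower. Hspa12a was lower at each day (-1.29, -1.23 and -1.35), and Hspa1l, the third gene of the Hspa1a cluster, was higher at days 2 and 4 (0.89 and 0.77). The HSP40 list had no gene higher and 2, 4 and 5 of 8 lower, led by Dnajb5 (-0.78, -0.47 and -0.96).

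The regulators of HSP70 had 1, 0 and 0 of 9 higher and 2, 3 and 6 lower. Bag3, which joins HSP70 to Hspb8, was lower at each day, as Hspb8 was, with log2 values of -0.58 (adjusted p = 0.0058), -0.45 (0.00067) and -0.55 (0.0024). It stood at 325 ± 89.9 CPM in sham and 231 ± 23.5 CPM in MI at day 2. Hsf1, the transcription factor itself, was lower at each day (-0.38, -0.29 and -0.80, adjusted p = 0.0034, 0.019 and 0.00011). Of the rest of its list, Hsf2 was lower at day 4 (-0.52, adjusted p = 0.0032), and Hsf4 and Hsbp1 passed at no day. Of the other small heat shock genes, Hspb3 was lower at days 4 and 7 (-0.87 and -0.63), and Hspb9 and Cryaa, both near 0, did not pass the filter. The list of Z-disc partners of the small heat shock proteins also took in Sqstm1, which is not itself a Z-disc protein. Of its 5 genes, 3 were higher at each day. Synpo2l rose by 1.92, 1.21 and 1.05, the filamin Flnc by 1.15, 0.61 and 0.53, and desmin (Des) by 0.72, 0.67 and 0.43. Synpo2 was lower at days 2 and 7 (-0.42 and -0.28) and Sqstm1 at day 2 (-0.32).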

How the data were processed

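RNA from mouse hearts was made into 30 directional libraries (NEBNext Ultra II) and read as paired reads of 150 bases, per the labels' protocols. The authors deposited raw counts per gene, 1 column per library and none unmapped, made with featureCounts on GRCm38 after bcl2fastq 2.20.0, per the submitters' processing notes. Which aligner and annotation were used, and whether counting used strand, is not given here. Gene symbols and lengths came from GENCODE M21 and promoters from RefSeq.

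Counts were fitted with edgeR 4.0.16 in R 4.3.3 (TMM factors, filterByExpr with a minimum count of 10 and a total of 15, robust quasi-likelihood test), and a call needed an adjusted p (Benjamini-Hochberg, across every gene tested) below 0.05. Each day was fitted on its 10 libraries, and comparisons between days on all 30. Correlations used 100000 permutations within groups (numpy 2.4.6) on log2(CPM + 1). A floor of 3 counts is 0.213 to 0.383 CPM, for counting error only. The fits were tested on simulated data. No pair of libraries in a group was identical within sampling noise (lowest chi-square per gene 5.30).

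The 10 members and the gene lists were chosen with earlier results of these data known. All members were described. From each wider list up to 4 called genes of the largest absolute fold change with a mean of at least 1 CPM were named, with Hsf1 and lists of 5 or fewer genes in full, and for each member the 3 most similar profiles were sought. Alternatives were median-ratio factors, DESeq2 1.42.0, limma 3.58.1 (voom), other filters, 1 fit of all libraries, a replicate block, the HSP70 copies summed, and each library or the lung-bearing libraries left out. Hspb1 summed with its pseudogene, and library totals without TMM factors, were added after seeing the data.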

Additional observations from a re-analysis of the deposited data

Results flagged for a closer look

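Within groups of 5, a single library stood apart from the other 4 by Dixon's test on log2(CPM + 1) in 7 of 60 combinations of gene and group, where chance gives about 1 in 20. These were Hspa1a in sham replicate 1 at day 4 (11.9 CPM), Hspa1b in MI replicate 5 at day 2 (26.8 CPM), Hspa1b in MI replicate 2 at day 4 (29.8 CPM) and Dnajb1 in the same library (61.5 CPM). Hspb1 stood apart in sham replicate 4 (120.5 CPM) and in MI replicate 3 (134 CPM) at day 7, and Hspb6 in MI replicate 2 at day 2 (1188 CPM), the one low value of the 7. On CPM without the log, 15 of 60 passed. Hspa1a and Hspa1b in sham replicate 4 at day 7 (57.0 and 73.1 CPM) were among those that passed on CPM alone.

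The effect of MI differed between days, by the edgeR test of the difference itself, for 5 small heat shock genes. Between days 2 and 7 the log2 effect moved by -1.03 for Hspb1, -0.92 for Hspb7, -1.04 for Cryab, -0.74 for Hspb6 and -0.73 for Hspb2. Of all genes tested, 19.2% were called between these days, 9.11% with a lower effect. Between days 2 and 4 it moved by -0.60 for Hspb7 and -0.73 for Hspb2, where 4.8% of genes were called. Between days 4 and 7 it moved by -0.67 for Cryab, where 1.02% were called. Without the lung-bearing libraries this Cryab call was lost (edgeR adjusted p = 0.17), as was that of Hspb2 between days 2 and 7 (0.051). The Cryab call was also lost without sham replicate 3 of day 4 (0.058).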

How the results depend on the processing

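Over all alternatives, 1784 values of the 10 genes were recomputed, of which 1752 kept their direction or stayed uncalled. Another 9 lost a call, 22 gained one and 1 reversed with a call. The reversed value was Hspa1b at day 7, at 0.73 without sham replicate 4, against -1.11 with all libraries. Its lowest value was -1.40 (without sham replicate 3) when 1 library was left out, and -2.18 among the other alternatives. A change of sign, called or not, occurred 67 times, with this reversed value among them. The number of genes called moved by over 1.5 times in these cases, and the cause was not tested. For the MI effect between days 2 and 4 (746 genes) it was 1218 with DESeq2, 1865 with limma voom and 475 with no filter. Between days 4 and 7 (158 genes) it was 419, 296 and 84, and 18 without the lung-bearing libraries. For sham hearts between days 2 and 4 (3795 genes) it was 2253 without those libraries. For sham hearts between days 4 and 7 it was 19 in edgeR, with 1692 at an unadjusted p under 0.05, and 105 with DESeq2, 110 with limma voom, 12 with no filter and 0 without the lung-bearing libraries. Leaving out 1 library at a time gave 5865 to 6727 genes at day 2, 6825 to 7813 at day 4 and 7318 to 8095 at day 7. It gave 416 to 1236, 70 to 294 and 2394 to 3509 for the MI effect between days 2 and 4, 4 and 7, and 2 and 7, 2905 to 3769 and 0 to 31 for the sham comparisons, and 15 to 23 of the 45 pairs of members. The labels do not say whether equal replicate numbers belong together. Of 15 same-numbered pairs, 6 had correlated deviations over 0.1 (range -0.215 to 0.237), and 4 of 15 MI libraries correlated best with their own number. Correlations this weak cannot decide whether libraries were paired. With a replicate block the day 2 value of Hspb1 was 1.01 (edgeR adjusted p = 0.0054), and no call on the 10 genes changed. Without TMM factors the share of called genes that were higher went from 52.0% to 65.1% at day 2, from 52.2% to 71.2% at day 4 and from 51.6% to 70.4% at day 7.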
